A study of Mus musculus with 6 samples.

Results

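Strong knockout-only open regions are stretches of chromatin that were called open in every Chd4 knockout library of mouse β-cells and in no control library, with peaks of at least median strength. They numbered 2712 of the 156745 regions found in the 6 libraries together. The peaks of all 6 lists were merged wherever they overlapped by at least 1 bp. An autosomal region was kept if no control peak touched it and if each of the 3 knockout lists had a peak in it whose −log10 p, the authors' measure of how far a peak stands above its local background, was at or above the median of that list. The regions were thus chosen by the peak calls and peak strengths of these same libraries, and their presence in the knockout, absence from the control and strength are descriptions and were not tested.

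The series measured open chromatin by ATAC-seq, which maps the DNA that the Tn5 transposase can reach and cut, in pancreatic β-cells, the source of insulin in the islets of Langerhans. The knockout group held 3 libraries of genotype Chd4KO from mice that the design text calls Chd4Db, and the control group 3 libraries of genotype Control. Mice of both groups had received tamoxifen, and in both groups β-cells carrying the red fluorescent reporter Tomato were sorted by flow cytometry. Each library started from 27000 to 80000 sorted cells and 14000 to 45000 nuclei, and fragments above 600 bp were left out. The Cre driver, the age and sex of the mice, and whether libraries with the same genotype represent different animals were not stated in the labels. Any spread between libraries given here may therefore be technical.

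Chd4 is the ATP-dependent motor of the NuRD complex, which slides nucleosomes and carries histone deacetylases. NuRD is best known for closing chromatin and lowering transcription at regulatory elements that a cell type does not use. Open chromatin away from gene starts often marks enhancers, and open chromatin over a gene start marks a promoter that the transcription machinery can reach. An ATAC-seq peak shows access to DNA and not transcription.

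A small part of the regions lay over annotated promoters, and there the DNA sequence could be read from a table of RefSeq promoters of assembly GRCm38.p6, the assembly named mm10. The regions reached 97 promoter windows of 300 bases, belonging to 84 genes, through 81 regions. Of these genes, 26 code for proteins and 58 for long noncoding RNAs. The sequences of 6 of them are shown, chosen by the rank of their region among genes whose whole window a region covered. They are the highest-ranked protein-coding genes and the highest-ranked long noncoding RNA gene. Each run holds the 200 bases before the annotated start, 5′ to 3′ on the strand of the gene. Capitals mark every match to the CCAAT box, the element bound by the factor NF-Y, read as CCAAT or as its reverse complement ATTGG. The box was capitalised after the motif counts had been seen.
Tlx3, chr11:33203589-33203788, minus strand: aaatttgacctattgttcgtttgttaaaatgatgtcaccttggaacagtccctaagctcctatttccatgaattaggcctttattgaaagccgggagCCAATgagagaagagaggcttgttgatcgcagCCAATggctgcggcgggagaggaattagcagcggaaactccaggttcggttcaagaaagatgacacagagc
Padi3, chr4:140810649-140810848, minus strand: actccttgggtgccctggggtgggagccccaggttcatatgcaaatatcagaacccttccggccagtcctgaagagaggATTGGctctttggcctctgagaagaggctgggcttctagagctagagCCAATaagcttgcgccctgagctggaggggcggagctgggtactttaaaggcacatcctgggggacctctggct
Ttc29, chr8:78213142-78213341, plus strand: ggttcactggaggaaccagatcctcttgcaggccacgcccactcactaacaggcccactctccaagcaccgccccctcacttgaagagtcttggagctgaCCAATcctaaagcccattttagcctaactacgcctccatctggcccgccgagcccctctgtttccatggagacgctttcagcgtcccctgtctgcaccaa
Prr19, chr7:25301159-25301358, plus strand: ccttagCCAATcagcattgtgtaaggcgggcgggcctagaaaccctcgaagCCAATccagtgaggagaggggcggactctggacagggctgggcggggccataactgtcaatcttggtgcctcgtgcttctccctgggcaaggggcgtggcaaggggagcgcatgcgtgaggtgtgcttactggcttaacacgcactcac
Olfr373, chr8:72099562-72099761, plus strand: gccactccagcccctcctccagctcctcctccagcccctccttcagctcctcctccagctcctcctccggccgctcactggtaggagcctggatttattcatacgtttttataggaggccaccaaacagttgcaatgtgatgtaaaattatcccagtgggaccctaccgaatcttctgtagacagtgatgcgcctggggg
Gm31712, chr13:50595599-50595798, minus strand: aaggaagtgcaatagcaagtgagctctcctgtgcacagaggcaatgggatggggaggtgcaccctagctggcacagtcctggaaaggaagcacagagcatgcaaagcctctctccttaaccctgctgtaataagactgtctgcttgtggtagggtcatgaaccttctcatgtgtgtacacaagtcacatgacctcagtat

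Tlx3 encodes a homeobox factor that sets neuronal fate, Padi3 a peptidylarginine deiminase of hair and skin, and Ttc29 a protein of the sperm flagellum. Prr19 codes for a proline-rich protein with a role in meiosis, Olfr373 for an olfactory receptor, and Gm31712 for a long noncoding RNA. The 3 promoters of Tlx3, Padi3 and Prr19 each held 2 boxes in the bases shown, that of Ttc29 held 1, and those of Olfr373 and Gm31712 held none. Over the Tlx3 start the authors' −log10 p was 381, 430 and 344 in knockout libraries 1 to 3. Over the Padi3 start it was 315, 448 and 396, and over the Ttc29 start 335, 275 and 348. All 9 values lay far above the list medians of 48.5, 50.3 and 44.6, and no control peak lay closer to these regions than the one 845 bp from the Tlx3 region.

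Across all 6 lists the knockout libraries held 122730, 124125 and 119088 peaks and the control libraries 100109, 110693 and 101289. The lists hold no reads, and sequencing depth is therefore unknown. At Chd4 itself (chr6:125095980-125130591) the peaks within the gene and 10 kb on either side covered 5050, 6007 and 5091 bp in knockout and 5452, 5298 and 5286 bp in control libraries. These values overlap, and peaks at a gene do not show whether its exons were deleted, and the genotype labels are not checked by them. All 12 β-cell markers examined, among them Ins1, Ins2, Pdx1 and Mafa, had a peak within 1 kb of the gene in all 6 libraries. No library had a peak within 1 kb of Gcg of α-cells, Ppy of PP cells, Cpa1, Ctrb1, Prss2 and Amy2a5 of acinar cells, Cdh5 of endothelium or Cd68 and Adgre1 of macrophages, and Sst of δ-cells had one in 1 knockout and 1 control library.

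Of all 152493 autosomal regions, 10.3% were knockout-only (15755 regions), and 1.78% met the strength rule. The strong regions were 17.2% of the knockout-only regions, and 13043 weaker ones remained. The same rule applied in mirror image, with strong peaks in all 3 control lists and no knockout peak, found 101 regions, 0.0662% of autosomal regions. The bar was not equal on both sides, because the median −log10 p was 48.5, 50.3 and 44.6 in knockout lists and 39.7, 36.8 and 39.4 in control lists. Control lists were also shorter, and their peaks at or above the median were correspondingly fewer. When each list was first cut to its 50000 strongest peaks, 1014 strong knockout-only and 86 strong control-only regions were found. The cut also removed weaker peaks of the other genotype, so a region could count as knockout-only while a weaker control peak lay in it. Only 401 of the 2712 regions (14.8%) were touched by one of those 1014 regions. Any of the 1014 that touched none of the 2712 held a control peak in the full lists. Raising the bar to the upper quartile of each list left 589 knockout-only regions and 0 control-only regions.

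**Figure D1:**
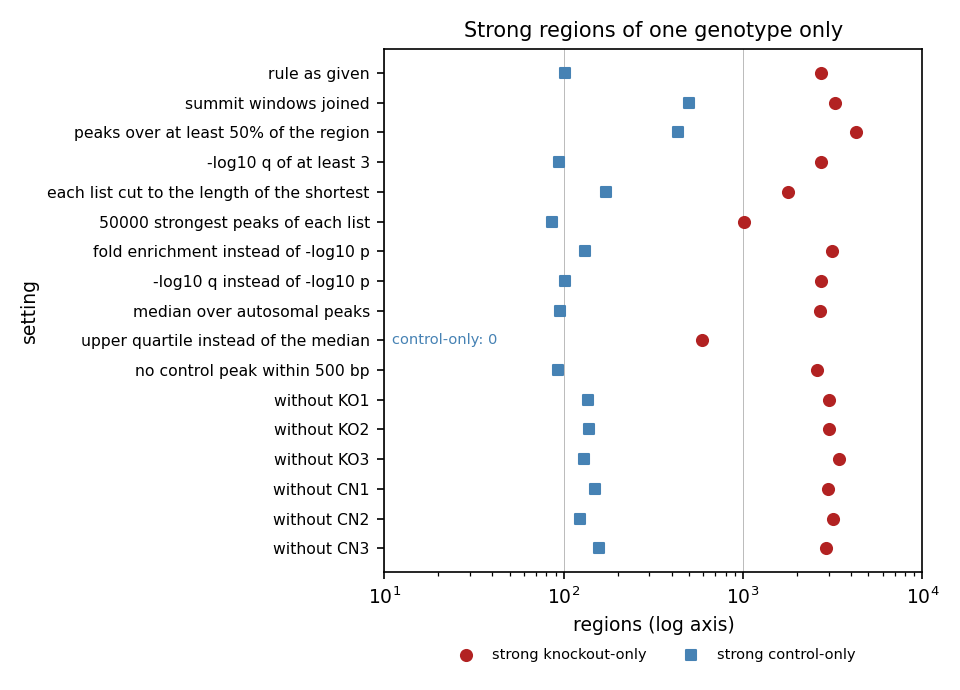
Number of strong regions of one genotype (x axis, logarithmic) under the rule as given and each alternative setting (y axis), with strong knockout-only regions as red circles and strong control-only regions as blue squares. The red circles lie between 589 and 4275 and the blue squares between 86 and 502, apart from the upper quartile setting, where no control-only region was left.

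The regions were strong peaks, though not the strongest in the lists. Their median −log10 p was 108.0, 118 and 95.5 in knockout libraries 1 to 3, against 22.5, 24.0 and 19.1 for the weaker knockout-only regions and 102, 108 and 88.7 for the 73402 autosomal regions called in all 6 libraries. Their median fold enrichment over background at the summit, also the authors' value, was 15.8, 16.1 and 13.1, against 12.7, 12.7 and 11.1 for the regions called in all 6 libraries. The regions called in all 6 libraries reached much further up: 16.1%, 16.4% and 15.5% of them were in the strongest 10% of the knockout lists, against 4.79%, 5.13% and 5.24% of the strong knockout-only regions. Only 83 of the 2712 regions were in the strongest 10% of all 3 knockout lists. For 1131 regions (41.7%) the lowest of the 3 percentiles was under 60, so a large part lay close to the bar.

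**Figure D2:**
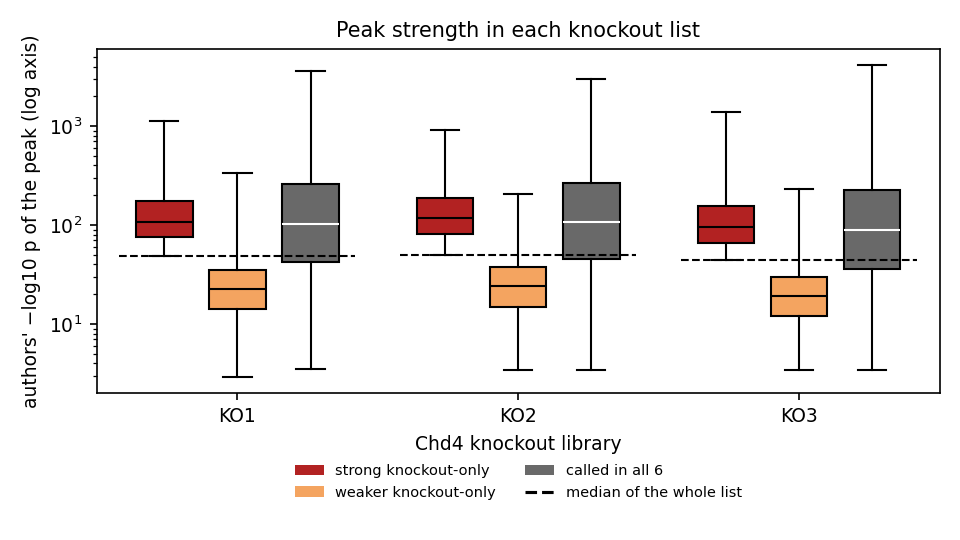
Authors' −log10 p per peak (y axis, logarithmic) in the 3 knockout lists (x axis) for strong knockout-only regions (red), weaker knockout-only regions (orange) and regions called in all 6 libraries (grey). Boxes span the quartiles with the median as a line, whiskers reach the lowest and highest value, and the dashed line is the median of the list, which the rule used. The red boxes lie above the dashed line, which their lower whiskers meet or come close to, with medians of 108.0, 118 and 95.5.

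The 3 knockout libraries placed the regions at nearly the same bases. In 2701 regions each knockout library had a single peak, and the peak summits of the 3 libraries lay within 50 bp of each other in 2547 regions (93.9%), with a median spread of 13 bp. The median peak width in the regions was 479 ± 3.61 bp (SD, n = 3 knockout libraries). The ranks of the regions by −log10 p were related between libraries, with Spearman correlations across the 2712 regions of 0.845 for libraries 1 and 2, 0.738 for libraries 1 and 3 and 0.707 for libraries 2 and 3. These correlations are descriptions, since all points share the same libraries and the same selection.

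The highest-ranked region lay between genes, 76.9 kb from Cxxc4, an inhibitor of Wnt signalling. Regions were ranked by the lowest of their 3 percentiles in the knockout lists. At this region (chr3:134339082-134339813) the −log10 p was 1026, 853 and 1376 in knockout libraries 1 to 3, and the nearest control peak was 6.87 kb away. Next came a region 371 kb from Chrm3 (chr13:10732522-10733097), which encodes the muscarinic acetylcholine receptor through which acetylcholine raises insulin secretion, with 986, 921 and 832. A region 214 kb from Cryba4, a crystallin gene of the lens (chr5:112031808-112032574), had 980.0, 875 and 709. In each of these 3 regions every knockout value was more than 15 times the median of its list, and the ratio to the median was lowest at 15.9 in the Cryba4 region.

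Among the 15 highest-ranked regions 4 lay inside genes, 1 at a gene end and 10 between genes. Inside Aff3, which encodes a nuclear factor of lymphoid cells, the −log10 p was 766, 783 and 757, and the 3 summits fell on the same base. Inside Lrfn2, a synaptic adhesion gene, it was 731, 716 and 729.7. Inside Casz1, a zinc finger factor of heart and nervous system, it was 701, 611 and 582. Inside Negr1, a cell adhesion gene of neurons, it was 644, 590.1 and 757. The single one at a gene end, 354 bp from Gm9573, had 881, 793 and 563. The other regions between genes lay nearest to Dsel, Chd7, St6galnac3, Rftn1, Prss54, Syne3 and Enc1. Chd7 encodes another chromodomain helicase and lay 97.1 kb from its region, which had 724, 645 and 603. The region nearest to Prss54 had 907, 671 and 555, and it differed from the other 14 in having a control peak only 144 bp away. For the other 14 the nearest control peak was 2.28 to 29.4 kb away.

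**Figure D3:**
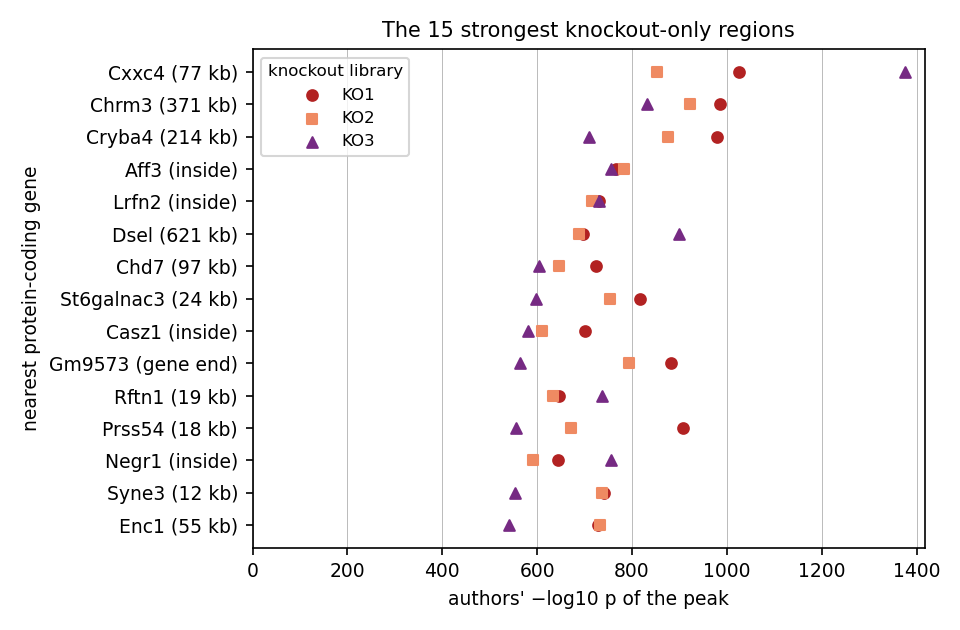
Authors' −log10 p (x axis) in knockout libraries 1, 2 and 3 for the 15 highest-ranked regions (y axis, named by the nearest protein-coding gene with its distance). All 45 values lie at 540 or above, and the highest is 1376 at the region nearest to Cxxc4.

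At the other end of the ranking the rule divided regions that hardly differed. The regions inside Tram2, Rora and Ube2cbp were just inside, each with a −log10 p of 48.5 in knockout library 1, exactly the median of that list. Just outside were a region inside Ttc17 with 44.56 in knockout library 3, where the median was 44.57, and regions near Lrrc55 and inside Fes with 50.23 and 50.20 in knockout library 2, where the median was 50.27.

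The regions lay mostly away from gene ends. Between protein-coding genes lay 1547 regions (57.0%, 95% Wilson interval 55.2 to 58.9%), inside genes 1048 (38.6%, 36.8 to 40.5%) and at gene ends, meaning up to 1 kb from the edge of a gene span, 117 (4.31%, 3.61 to 5.15%). The intervals treat regions as independent and cover counting error only. Of the weaker knockout-only regions, 49.3% lay between genes, 47.0% inside and 3.71% at gene ends. Of the regions called in all 6 libraries, 35.5% lay between genes, 45.6% inside and 18.9% at gene ends. Of the 4043 control-only regions, 34.5%, 59.6% and 5.91% lay in these places. Seen from the locations, 2.61% of all autosomal regions between genes were strong knockout-only, 1.38% of those inside genes and 0.669% of those at gene ends. For all knockout-only regions these shares were 13.4%, 9.48% and 3.44%.

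**Figure D4:**
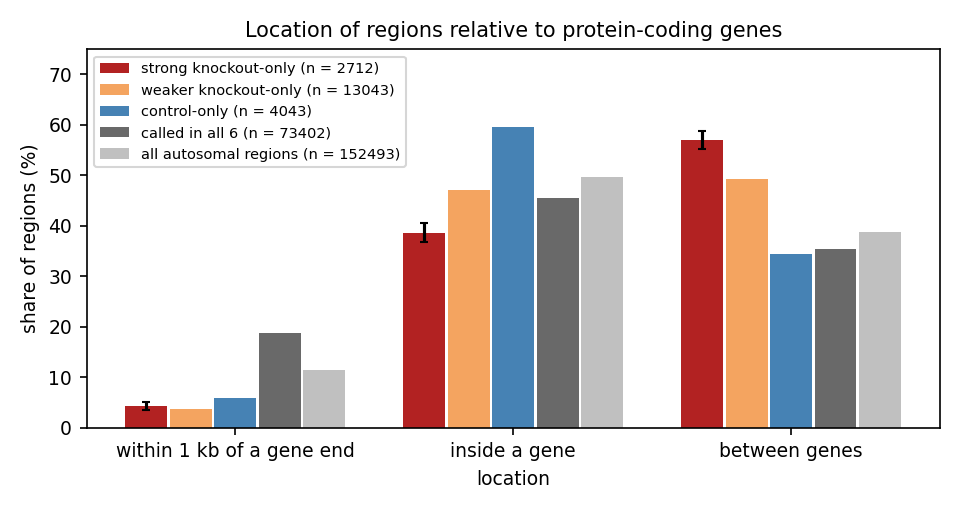
Share of regions (y axis, percent) within 1 kb of a gene end, inside a protein-coding gene and between genes (x axis) for strong knockout-only, weaker knockout-only, control-only, commonly called and all autosomal regions. Error bars are 95% Wilson intervals for the strong knockout-only regions, of which 57.0% lay between genes and 4.31% at gene ends.

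Distance to genes was close to that of the other classes. Regions between genes had a median distance of 34.5 kb to the nearest gene, against 40.6 kb for the weaker ones and 34.1 kb for the regions called in all 6 libraries. Of those between genes, 409 (26.4%) lay over 100 kb from any gene, against 31.9% of the weaker ones and 27.3% of the regions called in all 6. The nearest region called in all 6 libraries was a median of 8.27 kb away, and 175 regions (6.45%) had one within 1 kb. The nearest control peak was a median of 5.55 kb away. It was within 500 bp for 121 regions (4.46%), and the closest stopped 23 bp short of the region. Peak strength hardly varied with location: the median −log10 p in knockout library 1 was 106 at gene ends, 106 inside genes and 110.5 between them.

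The regions were intermediate in width. The median was 540 bp, with quartiles of 430.0 and 661 bp and a range of 270 to 2023 bp. The weaker knockout-only regions had a median of 362 bp, the control-only regions 411 bp and the regions called in all 6 libraries 766 bp. A region joined from more libraries can only grow, so the last class had more peaks to widen it. Width and the lowest percentile had a Spearman correlation of 0.306 across the 2712 regions, as a description. Only 36 regions exceeded 1 kb.

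The widest was a 2023 bp region inside Nuggc (chr14:65624080-65626102), a gene of germinal centre B cells, with a −log10 p of 177, 242 and 99.6 in knockout libraries 1 to 3. A 1508 bp region near Cadm1, a cell adhesion gene, had 66.2, 82.8 and 50.6. Its summits were spread over 332 bp, while peaks covered 1194, 1428 and 1153 bp of it in knockout libraries 1 to 3. A 1452 bp region 1.37 kb from Exoc2, a subunit of the exocyst that tethers secretory vesicles, had 215, 218 and 179.8, but a control peak lay 96 bp away. Those near Nptx2, a neuronal pentraxin, and Ubtf, a factor for ribosomal RNA transcription, measured 1467 and 1291 bp. Those near Tmco5 and inside Plekhh2 and Abca13 measured 1274, 1200.0 and 1149 bp. Width and strength did not go together here: Plekhh2 had 313, 361 and 343, while Tmco5 was at the bar with 48.5 in knockout library 1.

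Of the 117 regions at gene ends, the highest-ranked was that of Gm9573, followed by Tlx3, whose promoter is shown above, Ostc, Klk12, Padi3, Zfp26, Ttc29, Psg16, Rasl10a and Olfr373. The region 791 bp from Ostc, a subunit of the complex that attaches sugars to proteins in the endoplasmic reticulum, had a −log10 p of 325, 414 and 399. At Klk12, a kallikrein-related protease gene, it was 321, 318 and 409.8. At Psg16, a pregnancy-specific glycoprotein gene, a 1090 bp region had 260.2, 301 and 349.9. The smallest fold enrichment of the 10 was at Rasl10a, a Ras-like gene that overlaps Gas2l1 there, with 7.96, 8.75 and 8.35, while Klk12 had 35.5, 33.7 and 32.1. All 117 regions at gene ends had a median width of 538 bp.

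The promoters reached by the regions were poor in CpG and rich in CCAAT boxes. A CCAAT box lay in 67 of the 97 windows (69.1%), against 45.4% of the 218 windows reached by weaker knockout-only regions, 36.8% of the 14618 reached by regions called in all 6 libraries and 37.3% of all 31365 autosomal windows in the table. At least 2 boxes lay in 39.2%, against 22.9%, 13.7% and 11.6%. The higher share appeared in protein-coding genes (65.5% against 38.1% of all such windows), in long noncoding RNAs (70.6% against 35.8%) and in windows with fewer than 10 CpG (67.9% against 38.7%). Counted by gene, since alternative starts of a gene share sequence, 56 of 84 genes (66.7%) had one, against 41.0% of all genes. The boxes lay a median of 71.5 bases before the start, against 89.5 in all windows. No test was made of these shares, and a match shows only that the letters are present.

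Counted in percentage points, the other 13 motifs differed less from all windows, though several differed more as a ratio. All letters were searched on both strands, and matches to different motifs may overlap. The E-box CAGATGG lay in 11.3% of the windows, against 5.32% of all windows. The GC box GGGCGGG lay in 20.6%, against 25.8% of all windows and 47.1% of those reached by regions called in all 6 libraries. The cAMP response letters TGACGT lay in 1 window (1.03%), against 7.56%. The AP-1 letters TGANTCA (8.25% against 7.85%) and HNF4 letters CAAAGTC (4.12% against 4.48%) were near the share in all windows. The ETS letters CCGGAAG lay in 8 of the 97 windows, against 2823 of 31365. RUNX letters TGTGGTT lay in 7.22% (5.32% of all windows) and HNF1 letters GTTAAT in 9.28% (7.12%). Lower than in all windows were TEAD letters GGAATG (11.3% against 14.6%), the TATA box TATAAA (10.3% against 13.6%), GATA letters AGATAA (6.19% against 11.2%), forkhead letters TGTTTAC or TGTTTGC (6.19% against 8.55%) and homeobox letters TAATTA (1.03% against 5.27%). The median window held 4 CpG, against 5 for weaker knockout-only regions, 7 for all windows and 21 for regions called in all 6 libraries. The regions overlapped such a window in 2.99% of cases, against 1.53% of the weaker ones and 15.3% of the regions called in all 6. These shares count only the windows available. None was available on chromosome 18, where 108 of the strong knockout-only regions lay, and some genes elsewhere, such as Dpysl4, had none.

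**Figure D5:**
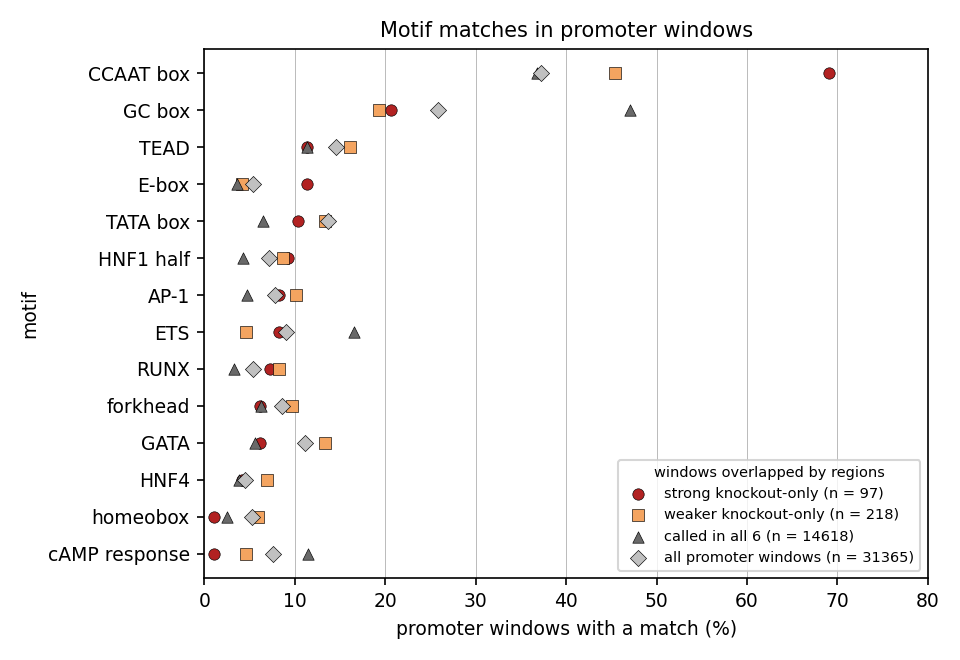
Share of promoter windows of 300 bases with a match (x axis, percent) for 14 motifs (y axis), for windows reached by strong knockout-only regions (red circles), weaker knockout-only regions (orange squares), regions called in all 6 libraries (grey triangles) and for all autosomal windows (light diamonds). The CCAAT box stands out at 69.1% for the strong knockout-only regions, against 37.3% of all windows.

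The 26 protein-coding genes whose promoters were reached included, besides those shown, Hmx1, a homeobox gene of eye and ear, Olig2, the oligodendrocyte factor, Nhlh1, a neuronal helix-loop-helix factor, and Tbx18, a T-box factor of mesenchyme. They also included Pnliprp2, a pancreatic lipase-related protein of acinar cells, Nr0b2, the small heterodimer partner that represses nuclear receptors in the liver, and Akap3 and Rbmxl2 of the male germ line. Among the 2712, their regions ranked 764 (Hmx1), 804 (Pnliprp2), 889 (Rbmxl2), 1111 (Akap3), 2006 (Nr0b2), 2019 (Olig2), 2403 (Nhlh1) and 2711 (Tbx18). The Tbx18 region was at the bar, with a −log10 p of 50.3 in knockout library 2, and a control peak lay 80 bp away. The names follow from position alone, and whether the genes were transcribed was not measured here.

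Some regions lay close together. Joined wherever the gap was at most 50 kb, 2206 regions stood alone, 204 stretches held 2 regions, 22 held 3 and 8 held 4. The stretch nearest to Cryba4 (chr5:112031808-112072801) held 4 regions within 41.0 kb, together with 2 weaker knockout-only regions, 1 control-only region and none called in all 6 libraries. Its members ranged from 111 to 980.0 in −log10 p in knockout library 1. Another held the 4 regions of Lrfn2 (chr17:48999482-49078754) within 79.3 kb, and one more lay over Ryr1 and Rasgrp4 (chr7:29067666-29139860) within 72.2 kb. Near Atxn1, the ataxin-1 gene, 4 regions lay within 47.4 kb. By contrast the 4 regions of the stretch near Mical3, which encodes an enzyme that oxidises actin filaments, stood among 15 regions called in all 6 libraries. Within 10 kb of a strong knockout-only region another one lay in 3.39% of cases, against 3.11% of the weaker and 3.31% of the regions called in all 6. Within 50 kb these shares were 18.7%, 15.9% and 15.1%.

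The regions were spread over many genes. They had 2190 different nearest genes, of which 1798 were nearest to a single region. Counting regions within a gene or 10 kb on either side, called its territory here, 1620 of 20665 autosomal genes (7.84%) had at least 1 region, and 1501 of the regions (55.3%) lay in such a territory. In all, 1457 genes had 1 region, 136 had 2, 22 had 3, 4 had 4 and 1 had 5. Of all autosomal regions in territories, 1.41% were strong knockout-only.

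The gene with 5 was Gpc6, a glypican of 1055 kb, whose 47 regions of all kinds included 25 called in all 6 libraries. Its 5 strong regions covered 2291, 2057 and 2501 bp in knockout libraries 1 to 3. Genes with 4 were Btbd11, Galntl6, an N-acetylgalactosaminyltransferase-like gene, Lrfn2 and Mical3. At Lrfn2 they were 4 of only 17 regions (23.5%), and they covered 3213, 3089 and 3329 bp in the knockout libraries, similar to the 3217, 3025 and 3014 bp under the 4 regions that all libraries shared. Those shared regions covered 2388, 2722 and 2528 bp in the control libraries. Of the 22 genes with 3, the first by name were Ankrd44, Apba2, which encodes a neuronal adaptor, and Asic2, an acid-sensing ion channel. In Asic2 the 3 were among 90 regions (3.33%).

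The gene lists examined were small, so their counts are descriptions beside the 7.84% of all genes and 1.41% of all territory regions. Among 30 β-cell transcription factors 3 had one, 10.0% of the genes and 0.552% of their 543 regions, so the share was above that of all genes by gene and below it by region. Bach2 had one inside with a −log10 p of 59.4, 89.2 and 65.3 in knockout libraries 1 to 3, and Mnx1 had one 7.39 kb away with 66.6, 55.3 and 82.0. Both were well below the strongest regions. Of 39 insulin secretion genes only Adcy8, an adenylyl cyclase, had one (1 of 744 regions, 0.134%), with 215, 211 and 239.7.

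Genes normally silenced in β-cells, called disallowed, had 4 of 24 with a region (4 of 138 regions, 2.90%). Acot7, a thioesterase, had the strongest, an internal region with 363, 430.1 and 311. Nfib, a nuclear factor I gene, had 200.1, 127 and 246, Yap1, the Hippo pathway coactivator, 114, 129 and 143, and Tgm2, a transglutaminase, 55.1, 68.5 and 57.6. Of 19 genes of progenitors and dedifferentiation only Mycl, a Myc family factor, had one, with 176, 171 and 155.

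Genes of other islet cells had regions in 3 of 17 α-cell genes and 4 of 15 genes of δ-, PP and ε-cells. Ldb2, a LIM domain-binding cofactor, had 2 internal ones, the stronger with 189, 235 and 227, and Etv1, an ETS factor, had one with 57.4, 84.2 and 70.9. The third, counted for Ttr, the transthyretin gene also on the liver list, lay nearer to B4galt6. Rbp4, a retinol carrier, had 322, 242 and 161, Hadh, an enzyme of fatty acid oxidation, 177, 159.7 and 153, and Sstr3, a somatostatin receptor, 102, 130.1 and 61.7. Shisal2b was near the bar with 56.0, 69.8 and 54.8. Summed over the 4 markers Sst, Hhex, Ppy and Ghrl, peaks covered 1582 to 1810 bp in knockout and 1936 to 2307 bp in control libraries, and the groups did not overlap. Ppy added nothing in any library, and Sst had a peak in 1 knockout and 1 control library only. In the remaining libraries this sum came from Hhex and Ghrl alone. The same sum did overlap for β-cell markers, with 26828 to 30505 bp in knockout and 29053 to 31630 bp in control libraries. It also overlapped for α-cell markers, with 5064 to 5383 and 5177 to 6628 bp. Duct markers gave 5911 to 6733 and 5413 to 7188 bp, and leukocyte markers 2191 to 3166 and 1880 to 2893 bp. The part of other islet cells in these regions was not tested.

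Genes of mesenchymal cells had a strong knockout-only region in 5 of 16 cases, and 6 of their 69 regions (8.70%) were of this kind, the largest share of regions among the 22 lists. Prrx1, a homeobox factor of mesenchyme, had an internal region with 138, 233 and 129 in knockout libraries 1 to 3. Col1a1, a chain of type I collagen, had one with 128, 150.3 and 108. Col1a2, the other chain, had one at its end with 65.4, 73.2 and 89.7 and one 3.01 kb away with 83.7, 77.7 and 106. The region near Sparc, a matrix protein gene, had 128, 114 and 82.5, and that in Des, which encodes desmin, had 143, 143 and 79.4. All were moderate peaks. Over the 4 markers Col1a1, Pdgfrb, Acta2 and Col3a1, all with a peak in every library, peaks covered 4719 to 5009 bp in knockout and 3223 to 3606 bp in control libraries. The knockout sums include the strong knockout-only region of Col1a1, which the rule chose, with 678, 694 and 506 bp. Without it they were 4041 to 4503 bp, against 3223 to 3606 bp in control libraries, and the groups did not overlap. The same sum for Pecam1, Cdh5, Kdr and Plvap of endothelium was 5868 to 7011 and 4224 to 5060 bp, with Cdh5 at 0 in all 6. These groups did not overlap either. None of the 16 endothelial and 17 leukocyte genes had a strong knockout-only region, over 80 and 64 regions in their territories. Lists this small can hold none at the 1.41% of all territory regions. The part of mesenchymal, endothelial or leukocyte cells in the strong knockout-only regions was not tested.

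Of 18 acinar genes 2 had one (2 of 41 regions, 4.88%), Cela2a, an elastase, with 158, 170.4 and 142, and Ctrb1, chymotrypsinogen, with one 4.47 kb away at 51.8, 74.4 and 50.2. The 6 acinar markers summed to 730 to 1358 bp in knockout and 504 to 848 bp in control libraries, with 4 of them at 0 throughout. Of 17 duct genes 3 had one (4 of 114 regions, 3.51%), among them Bicc1 with 2 and Krt7, a keratin, with 56.1, 86.3 and 53.1.

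Neuronal genes had more by count but not by share of their regions. Of 34 genes 9 had one, yet these are long, with a median of 285 kb, and hold 925 regions, of which 11 (1.19%) were strong knockout-only. The strongest was in Nrxn3, a presynaptic neurexin, with 314, 274 and 380.3. Others were in Grin2a and near Grin2b, glutamate receptor subunits, and in Dlgap1, Csmd1, Nrxn2 and Camk2a. Dpysl4, an axon guidance gene, had 2, of which one spanned 1057 bp. Cell adhesion and cytoskeletal genes had a region in 7 of 19 cases. Of their 498 regions 8 (1.61%) were strong knockout-only, slightly above the 1.41% of all territory regions. The strongest there was in Ank3, the ankyrin of axon initial segments, with 369, 389 and 271. Others were at Myo5b and in Cdh13, Cdh4 and Cdh23, and 6.13 kb from Cdh2.

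Striated muscle genes had 4 of 20 with a region and 6 of 129 regions (4.65%), of which 3 belonged to Ryr1 alone. Ryr1 encodes the calcium release channel of skeletal muscle. Its internal region at chr7:29089760-29090507 had 564, 628 and 458, a second had 678, 551 and 334, and the third was at the bar with 48.5, 95.5 and 56.6. The first pair ranked 41 and 92 of the 2712. The remaining muscle entries were Des, named above, and Tnnt2 and Tnnt1, both with another gene nearer.

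Among chromatin complexes 2 of 14 NuRD genes had a region, Chd5, a neuronal paralogue of Chd4, with 144 in knockout library 1, and Mbd3, whose region lay inside Mex3d. Of 21 SWI/SNF genes 3 had one, and the strongest was in Arid1b, a subunit of the remodeler, with 498, 364 and 204. Smarca4 and Smarcc1 were the others. Intestine and stomach genes had 3 of 17, Muc2, Fabp2 and Sox2, and liver genes 1 of 25. Of 13 housekeeping genes 2 had one within 10 kb, Rpl13a and Eef1a1, each inside a neighbouring gene. Of 19 AP-1 and immediate early genes, 18 genes of squamous and glandular epithelium and 14 germline genes, none had one, over 96, 39 and 63 regions in their territories.

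Among the microRNA hairpins searched, one lay within 1 kb of 3 regions. The autosome without promoter windows was left out, so not all of the 1005 hairpins in the RefSeq table were searched. A region near Crtac1 (chr19:42280059-42280522) covered the whole hairpin of Mir3085, with 67.8, 61.5 and 55.5 in knockout libraries 1 to 3. Its mature strands are shown with the seed, bases 2 to 8, in capitals, because this was the only searched hairpin that was covered.
mmu-miR-3085-5p: aGGUGCCAuuccgagggccaagagu
mmu-miR-3085-3p: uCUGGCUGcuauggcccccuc
Another region lay 823 bp from the hairpin of Mir192, a microRNA known from liver, kidney and intestine, with 133, 129.6 and 84.1. The last lay 535 bp from Mir1963, inside Ryr1. No expression of these microRNAs was measured here.

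The share varied little between autosomes. Strong knockout-only regions made up from 1.58% of the regions of chromosomes 4 and 9 to 2.08% of those of chromosomes 10 and 15, against 1.78% overall.

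Shared regions near the strong knockout-only regions were compared between the genotypes by the bases under peaks. The covered length of each library was scaled to a common total over the 73402 shared autosomal regions, and was tested on the log2 scale with limma, calling regions whose Benjamini-Hochberg adjusted p was under 0.05. Over all shared regions 4.21% were wider and 3.02% narrower in the knockout. Of 2429 shared regions within 10 kb of a strong knockout-only region, 89 (3.66%) were wider and 132 (5.43%) narrower. The median log2 ratio of knockout to control was -0.05 for these and -0.01 for all shared regions. This contrast is the one that chose the regions, and a shared peak that widened into a neighbouring knockout-only peak would have merged with it, so nothing is read from these counts. They also depended on the scaling: scaled to the length under all peaks, where the median over all shared regions was -0.17, 72 were wider and 452 narrower, and the share of wider among all calls was 19.9% in place of 58.3%. Unscaled, covered length near the regions averaged 685, 695 and 671 bp in knockout and 687, 712 and 689 bp in control libraries, so the groups overlapped. On the scale of the fit it averaged 681, 680.2 and 677 bp in knockout and 700.2, 699 and 703 bp in control libraries, and the groups did not overlap. Leaving out knockout libraries 1, 2 or 3 left 25, 33 or 36 wider and 53, 56 or 65 narrower. Without control libraries 1 or 3, 65 or 49 were wider and 69 or 59 narrower.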

How the data were processed

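ATAC-seq was run on 3 Chd4 knockout and 3 control libraries. The authors deposited 1 list of narrow peaks per library, without pooling replicates. The peak names in the deposited files point to MACS2 on shifted cutting sites, while its settings and the aligner are not stated. Coordinates are those of mm10, per the submitters' processing notes. The deposited score is 10 times the −log10 q. Each peak in the authors' lists has a fold enrichment (a ratio to local background), a −log10 p, a −log10 q and a summit position, all taken as the authors gave them and used within a list only. Depth in reads is unknown. Absence from a list means only that no peak was called.

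Regions were merged, annotated and counted in Python 3.11.15 with pandas 2.3.3. Genes were 21887 RefSeq protein-coding genes of GRCm38.p6, given as spans without exons, so exons and introns could not be distinguished. Promoter and microRNA sequences came from RefSeq tables of that assembly, so the sequences of regions away from promoters are not shown. Shared regions were fitted in limma 3.58.1 (R 4.3.3) with an intensity trend over all 6 libraries, after a check on simulated data. Whether the replicate numbers pair libraries across the groups is not known, and they were not used as a block in the main fit.

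The regions, the gene lists and their rules were chosen with earlier results of these data known. Named were the 15 highest-ranked regions, the 10 highest-ranked at gene ends, the 8 widest, the 8 genes with most regions, up to 6 genes per list and 3 regions on either side of the bar. A few listed genes are counted but not reported by name here. Protein-coding promoters, stretches and microRNAs were named after their values were seen.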

Additional observations from a re-analysis of the deposited data

Results flagged for a closer look

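The rule keeps autosomes only, so the sex chromosomes were outside the comparison. By the same rule the X chromosome held 65 strong knockout-only regions of 4176 (1.56%) and 0 strong control-only regions, and was singled out as signal in data not otherwise used. The share on the autosomes was 1.78%. The Y chromosome held 0 of 76 regions.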

How the results depend on the processing

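The number of regions (2712) became 4275 when a library's peaks had to cover 50% of a region, 1775 with each list cut to the length of the shortest, 1014 with the 50000 strongest peaks and 589 at the upper quartile. Leaving out each library in turn gave 2901 to 3407, and each of these sets overlapped all 2712. Dropping a library can only loosen the rule, so this full overlap was fixed in advance and says nothing about stability. The median width was 214 bp for joined summit windows of fixed size, 605 bp under the 50% rule, 570 bp with lists cut to the shortest, 681 bp with the 50000 strongest, 534 bp by fold enrichment, 606 bp at the upper quartile, and 502 to 548 bp without each library. Gene ends held 6.98% with summit windows, 6.31% with the 50000 strongest, 3.57% at the upper quartile and 15.9% with ends of 5 kb, and 4.13 to 4.38% without each library. Inside genes lay 41.3% with the 50000 strongest and 33.8% with ends of 5 kb, and 38.6 to 39.9% without each library. Between genes lay 53.8% with summit windows, 52.4% with the 50000 strongest and 50.3% with ends of 5 kb, and 55.8 to 57.2% without each library. Nearest genes numbered 905 with the 50000 strongest, 541 at the upper quartile and 2313 to 2647 without each library. Where lists were cut, control peaks below the cut no longer excluded a region. The cause of these shifts was not tested. Further settings were a −log10 q of 3, q in place of p, an autosomal median, and no control peak within 500 bp. They kept each of these counts within 1.5 times and each share within its Wilson interval. The median width was then 540 or 541 bp. Strong control-only regions numbered 0 to 502 over all settings, against 589 to 4275 strong knockout-only ones, and the smallest ratio was 6.51 with summit windows.

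Shared regions near the strong knockout-only ones were wider in 503 and narrower in 403 cases within 50 kb, and in 46 and 86 cases with at least 500 bp covered. Narrower ones numbered 452 when scaled to all peaks. Leaving out each library gave 25 to 82 wider and 53 to 89 narrower. With the replicate number as a block, limma called 0 wider and 0 narrower near the regions and 0 of all shared regions, while 262 and 417 near them had an unadjusted p under 0.05. Same-numbered libraries deviated with correlations of 0.04, 0.06 and -0.02, and differently numbered ones with -0.09 to 0.04. Values this small cannot show whether the numbers pair the libraries. Without read counts, regions absent from a control list cannot be told from ones just under its calling threshold.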
